A study of Mus musculus with 8 samples.

Results

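Genes of interleukin-4 (IL-4) and STAT6 signalling were followed in primary mouse microglia, the macrophages that reside in the brain, with and without oxygen-glucose deprivation (OGD), which imitates ischaemia in culture. The 10 genes were taken by name from the 54419 gene models of the deposited table: the receptor chains Il4ra, Il13ra1 and Il2rg, the kinases Jak1 and Tyk2, the transcription factors Stat6 and Pparg, the targets Chil3 and Arg1, and the inhibitor Socs1. A model under the exact name was found for 9 of them, and Il2rg was read from a model that joins it with Gm614 and Gm20489. Of the 10, 8 reached 1 FPKM (fragments per kilobase of model, relative to all fragments mapped in a library) in at least 2 of 8 libraries and were tested among 11146 such models, while Arg1 and Socs1 did not.

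IL-4 and IL-13 bind receptors that share the IL-4 receptor alpha chain, paired in haematopoietic cells with the common gamma chain and in many other cells with the IL-13 receptor alpha-1 chain. Janus kinases bound to these chains phosphorylate STAT6, which pairs up, enters the nucleus and binds palindromic sites near genes such as Chil3, Arg1, Mrc1 and Retnla, the genes by which alternative activation of mouse macrophages is usually recognised. PARP14, an ADP-ribosyltransferase, is known as a cofactor of STAT6 in lymphocytes.

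The cells came from brains of C57BL/6 mice at postnatal day 2 and were grown in flasks with serum. Per the labels, every culture received a CRISPR activation plasmid for 24 h, either aimed at Parp14 (labelled PARP14) or a control (labelled Con), and OGD was given for 6 h. By title there are 4 groups with 2 libraries each, OGD_PARP14 and OGD_Con with OGD, and PARP14 and Con without it. The treatment text speaks of OGD throughout, but it stands in only 4 of the titles, and these set the groups. Each title ends in 1 or 2. The design text speaks of 2 independent experiments without tying the number to one, and no label says whether the libraries of a group had their own cultures or animals. The p-values therefore measure no more than how far these libraries scatter, and that scatter may be technical. Parp14 itself, read from a model listed as Gm49730, held 55.8 and 54.6 FPKM in the libraries labelled OGD_PARP14, 12.5 and 53.7 in OGD_Con, 12.2 and 11.5 in PARP14, and 61.4 and 50.7 in Con. These levels go against an activation in the libraries labelled PARP14, so every direction between plasmids rests on the labels.

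The library labelled OGD_PARP14 replicate 2 stood apart, with Pearson correlations of 0.88 to 0.903 with the other 7, whose pairs reached 0.945 to 0.986, and results are given with and without it. Depth, inferred from the step between the lowest FPKM values, was 13.4 to 17.0 M fragments. Of 8 microglia markers 7 exceeded 1 FPKM in every library (summed level 1437 to 2253 FPKM), and Trem2, listed at 0 under its exact name, held 11.1 to 87.9 FPKM in a model joined with Treml1. Among 8 neutrophil markers 6 were listed at 0 in every library (sum 0.0846 to 1.05 FPKM), as were 5 of 7 of T cells, basophils and mast cells (0.0848 to 0.239 FPKM). Monocyte and peripheral macrophage markers summed to 45.7 to 57.0 FPKM, mostly Ms4a7 from a model joined with Ms4a14, with Plac8 listed at 0. The sums were 3.90 to 5.88 FPKM for astrocyte, 6.08 to 10.4 for oligodendrocyte lineage, 2.46 to 4.17 for neuron, and 0.661 to 7.11 for endothelial, fibroblast and mural markers.

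Outside the library that stood apart, the receptor chains, both kinases and Stat6 were present at levels that differed little with OGD or plasmid label, Pparg was higher with OGD, Socs1 was lower with OGD, and Chil3 followed the title number instead. Arg1 was near the limit of detection throughout.

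**Figure D1:**
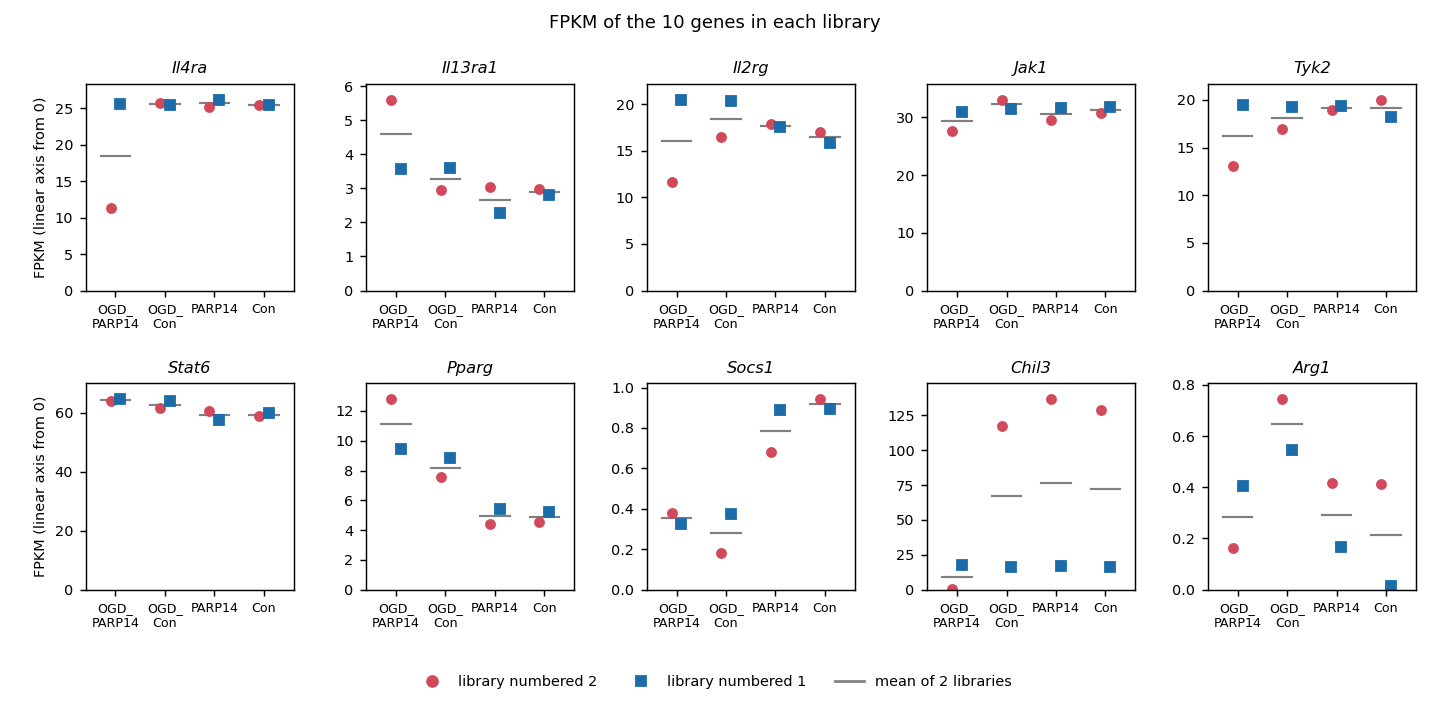
FPKM of each of the 10 genes (linear axes from 0) in the libraries labelled OGD_PARP14, OGD_Con, PARP14 and Con. Circles are libraries numbered 2, squares are libraries numbered 1 and bars are the means of 2. Il4ra lies between 25.1 and 26.2 FPKM in 7 libraries and at 11.3 in OGD_PARP14 replicate 2, Pparg is higher and Socs1 lower in the 4 OGD libraries, and Chil3 separates by number.

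Receptor chains came first in the pathway. Il4ra, the chain that binds IL-4 and is common to both receptors (chromosome 7 from 125552120 to 125579474, plus strand), held 25.6 and 11.3 FPKM in the libraries labelled OGD_PARP14, 25.5 and 25.7 in OGD_Con, 26.2 and 25.1 in PARP14, and 25.4 and 25.5 in Con. In 7 libraries it was nearly flat, with the highest only 1.04 times the lowest, and OGD_PARP14 replicate 2 stood at 0.442 of their mean. Il13ra1, the chain that completes the receptor for IL-13 (chromosome X from 36112110 to 36171259, plus strand), held 3.56 and 5.61 FPKM in OGD_PARP14, 3.61 and 2.96 in OGD_Con, 2.29 and 3.05 in PARP14, and 2.79 and 2.99 in Con. Its highest level was in OGD_PARP14 replicate 2. Both OGD_PARP14 libraries lay above those of PARP14 and Con, whereas OGD_Con overlapped with every other group. The joined model of Il2rg, the gamma chain shared by several interleukin receptors (chromosome X from 101261376 to 101268255, minus strand), held 20.5 and 11.7 FPKM in OGD_PARP14, 20.4 and 16.5 in OGD_Con, 17.5 and 17.9 in PARP14, and 15.9 and 17.1 in Con. OGD_PARP14 replicate 2 was the lowest library, and no group was separated from the others.

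The kinases varied little. Jak1, which associates with the IL-4 receptor alpha chain (chromosome 4 from 101152367 to 101265282, minus strand), held 30.9 and 27.7 FPKM in OGD_PARP14, 31.5 and 33.1 in OGD_Con, 31.7 and 29.6 in PARP14, and 31.8 and 30.7 in Con. Its model overlaps Raver2 on the opposite strand, which averaged 39.5 FPKM. Tyk2, which associates with the IL-13 receptor alpha-1 chain (chromosome 9 from 21104068 to 21131243, minus strand), held 19.4 and 13.1 FPKM in OGD_PARP14, 19.3 and 16.9 in OGD_Con, 19.3 and 19.0 in PARP14, and 18.2 and 20.0 in Con. Both were lowest in OGD_PARP14 replicate 2, and in the other 7 libraries the highest level was 1.12 times the lowest for Jak1 and 1.18 times for Tyk2.

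Stat6, the transcription factor that carries the IL-4 signal (chromosome 10 from 127642986 to 127660957, plus strand), was the most abundant member in 5 libraries per length of model, with Chil3 above it in the other 3. It held 64.8 and 64.2 FPKM in OGD_PARP14, 64.1 and 61.6 in OGD_Con, 57.6 and 60.7 in PARP14, and 59.9 and 59.0 in Con. All 4 OGD libraries lay above all 4 without OGD, a pattern that 8.06% of all models tested shared. The log2 fold change over both arms was 0.10 (SE 0.07, 95% interval -0.07 to 0.27, limma adjusted p = 0.402), so it was not called. In limma the SE is drawn towards the spread of all models, so it is not the spread of Stat6 alone. A model of Nab2 on the opposite strand overlaps Stat6 and averaged 15.0 FPKM.

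Pparg encodes a lipid-activated nuclear receptor that works with STAT6 in alternatively activated macrophages (chromosome 6 from 115360951 to 115490399, plus strand). It held 9.44 and 12.8 FPKM in OGD_PARP14, 8.87 and 7.54 in OGD_Con, 5.45 and 4.38 in PARP14, and 5.22 and 4.55 in Con. The 4 OGD libraries were all above the 4 others, as in 8.06% of models tested, with OGD_PARP14 replicate 2 the highest. Group means were 11.1 ± 2.39 FPKM in OGD_PARP14, 8.20 ± 0.936 in OGD_Con, 4.92 ± 0.755 in PARP14 and 4.89 ± 0.478 in Con (SD, n = 2 each). With the OGD effect averaged over both plasmid labels, a comparison added after the data were seen, Pparg rose by 0.84 on the log2(FPKM + 1) scale (SE 0.13, 95% interval 0.52 to 1.15, limma adjusted p = 0.0269), where 6.17% of models were called (2.65% as higher and 3.53% as lower). It was the 1 member called of 8 tested. In bulk RNA, fewer cells of a type and less RNA per cell cannot be told apart. Without OGD_PARP14 replicate 2 the change was 0.73 (SE 0.10, limma adjusted p = 0.00715), where 32.8% of models were called. The call was lost with the title number as a block (limma adjusted p = 0.0541) and when any 1 of the 6 libraries of OGD_Con, PARP14 and Con was left out (limma adjusted p = 0.113 to 0.130).

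Within each plasmid label the OGD difference of Pparg had the same sign. OGD_PARP14 against PARP14 gave 1.03 (SE 0.18, limma adjusted p = 0.113), and 0 of 8 members were called where 0.215% of models were, with 2 members at an unadjusted p under 0.05. OGD_Con against Con gave 0.64 (SE 0.18, limma adjusted p = 0.165), and 0 of 8 members were called where 0.269% of models were, with 1 member at an unadjusted p under 0.05. Pparg rose in both when OGD_PARP14 replicate 2 was left out, by 0.83 (SE 0.16, limma adjusted p = 0.0399) in OGD_PARP14 against PARP14, where 10.7% of models were called, and by 0.64 (SE 0.13, limma adjusted p = 0.0271) in OGD_Con against Con, where 23.1% were. These comparisons rest on 1 library in OGD_PARP14, which is assumed to vary like the others. The difference between both OGD effects on Pparg was 0.39 (SE 0.26, 95% interval -0.25 to 1.02, limma adjusted p = 0.824).

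Beside Pparg, 0 of the other 7 members were called for OGD over both arms. Their median with Pparg included was -0.01 over the 8 tested, against -0.05 over all models. When OGD_PARP14 replicate 2 was left out, the 95% intervals of the OGD effect over both arms were -0.13 to 0.13 for Il4ra, -0.12 to 0.18 for Jak1 and -0.22 to 0.16 for Tyk2. For Il13ra1 the interval was -0.04 to 0.50 and for Il2rg -0.05 to 0.40. Differences between genes in the OGD effect were not tested.

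**Figure D2:**
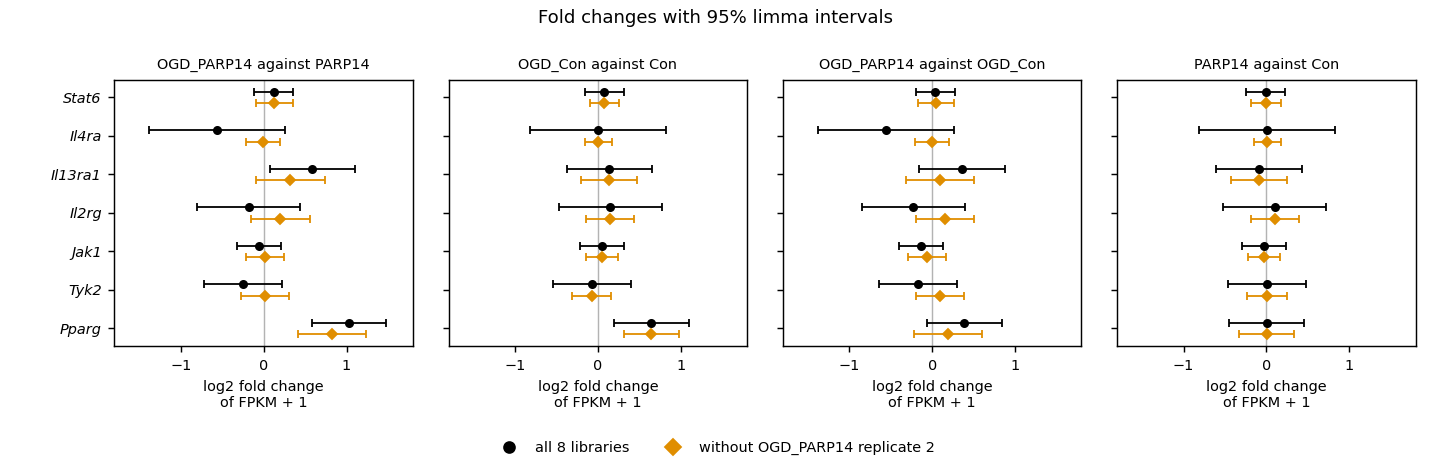
Log2 fold changes of FPKM + 1 (horizontal axes) with 95% limma intervals for the 7 tested members other than Chil3, in 4 comparisons, with all 8 libraries (black) and without OGD_PARP14 replicate 2 (orange). Pparg lies at 1.03 and 0.64 in both OGD comparisons, and every interval for PARP14 against Con includes 0.

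Between plasmid labels no member was called. For OGD_PARP14 against OGD_Con, 0 of 8 members passed and 0% of models did, with 0 members and 387 models at an unadjusted p under 0.05. Again 0 of 8 members passed without OGD_PARP14 replicate 2, where 0.0987% of models were called, and the 7 members other than Chil3 differed by at most 0.19 on the log2 scale. For PARP14 against Con, 0 of 8 passed where 0.00897% of models did, 0 of the 8 reached an unadjusted p under 0.05, and their log2 fold changes lay between -0.09 and 0.10. Leaving out OGD_PARP14 replicate 2 again gave 0 of 8, where 0.0538% of models were called. In that comparison the 95% interval was -0.24 to 0.23 for Stat6 and -0.45 to 0.45 for Pparg. For the difference between both OGD effects, 0 of 8 passed where 0.00897% of models did, with 0 at an unadjusted p under 0.05, and 0 of 8 without OGD_PARP14 replicate 2, where 0.0807% did.

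Socs1, an inhibitor of Janus kinases that cytokines themselves induce (chromosome 16 from 10782240 to 10785536, minus strand), was below 1 FPKM everywhere. It held 0.326 and 0.381 FPKM in OGD_PARP14, 0.376 and 0.183 in OGD_Con, 0.887 and 0.680 in PARP14, and 0.893 and 0.945 in Con, on about 8 to 41 fragments. All 4 OGD libraries lay below all 4 without OGD, a pattern that 15.8% of models tested shared. Fitted with no filter on low values, Socs1 fell by 0.49 over both arms (SE 0.07, limma adjusted p = 0.0375), where 3.14% of models were called (1.21% as higher and 1.93% as lower). Without OGD_PARP14 replicate 2 the fold change was -0.51 (SE 0.08, limma adjusted p = 0.0318), where 14.7% were called (7.41% as higher and 7.33% as lower). Within labels it did not pass, with -0.40 (SE 0.09, limma adjusted p = 0.221) in OGD_PARP14 against PARP14 and -0.59 (SE 0.09, limma adjusted p = 0.0931) in OGD_Con against Con. Since the pseudocount is larger than every value of Socs1, these fold changes understate the ratio of its levels.

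Chil3 encodes the chitinase-like protein Ym1, a secreted lectin that mouse macrophages make under IL-4 (chromosome 3 from 106147554 to 106167564, minus strand). Its neighbour Chil4 encodes the closely related Ym2. Their GENCODE M21 transcripts, Chil3-201 and Chil4-201, are identical at 94.4% of 1538 aligned bases, so the authors' counting could split fragments between them, yet Chil4 was listed at no more than 0.00917 FPKM in any library. The 250 bases before each start site are printed here because the genes differ so far in level while these stretches are near copies (RefSeq, GRCm38.p6, minus strand, Chil3 at chr3:106167565-106167814 and Chil4 at chr3:106219480-106219729). Capitals mark a match to TTCNNNGAA, the palindrome that STAT factors bind in general.
Chil3: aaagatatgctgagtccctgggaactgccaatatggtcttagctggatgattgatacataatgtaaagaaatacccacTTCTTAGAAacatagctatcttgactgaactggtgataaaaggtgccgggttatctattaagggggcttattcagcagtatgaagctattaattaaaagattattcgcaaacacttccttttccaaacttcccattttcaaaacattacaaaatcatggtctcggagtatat
Chil4: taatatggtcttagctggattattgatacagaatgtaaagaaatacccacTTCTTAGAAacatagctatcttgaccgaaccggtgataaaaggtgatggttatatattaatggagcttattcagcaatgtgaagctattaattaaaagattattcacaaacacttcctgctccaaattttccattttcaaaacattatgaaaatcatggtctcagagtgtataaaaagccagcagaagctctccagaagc
The windows of 300 bases, which run 50 bases past the start, were identical at 92.6% of 271 aligned bases. The match begins 172 bases before the RefSeq start in Chil3 and 200 bases before it in Chil4. GENCODE M21 starts Chil4 at 106219507, inside the stretch printed, and Chil3 at 106167564, next to it, so the distance in Chil4 depends on the annotation. TTCNNNGAA, which reads the same on either strand, was held by 8.3% of 32851 such mouse windows and by 1 of the 11 windows of the 9 members other than Arg1. A match is a description of these letters only and does not mark a STAT6 site, and motifs with another spacing are not reported here.

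The level of Chil3 followed the number in the title. Libraries numbered 2 held 0.327 FPKM in OGD_PARP14, 118 in OGD_Con, 137 in PARP14 and 129 in Con. Those numbered 1 held 17.5 FPKM in OGD_PARP14, 16.4 in OGD_Con, 16.7 in PARP14 and 16.2 in Con. The 4 libraries numbered 1 were thus nearly equal across OGD and plasmid label (16.7 ± 0.534 FPKM, SD, n = 4), 3 of those numbered 2 were nearly equal at a higher level (128 ± 9.68 FPKM, SD, n = 3), and the fourth was far below both. The 3 were 7.66 times the mean of the libraries numbered 1. These levels are a description and were not tested, because Chil3 was chosen for this pattern.

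Between libraries of 1 group the ratio of number 2 to number 1 was 0.0187 in OGD_PARP14, 7.16 in OGD_Con, 8.23 in PARP14 and 7.94 in Con. OGD_PARP14 replicate 2 rested on about 7 fragments and stood at 0.00508 of the mean of the other 7 libraries, which rested on about 343 to 3594. Chil3 was taken for the separation of its 3 libraries numbered 2 above the 4 numbered 1, which 3.22% of all models also showed, and nothing is read from that count. Of the other 7 tested members, 0 lay above in this way and 0 below, where 2.58% of models lay below. With group and number in 1 limma fit of all models and 8 libraries, the row of Chil3 was not used. Of the other 7 members 0 were called for number, where 0% of models were, with 0 of these 7 and 440 of all models at an unadjusted p under 0.05. With OGD_PARP14 replicate 2 left out, the 7 differed by at most 0.21 on the log2 scale between the numbers, with Pparg at -0.21.

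The group comparisons of Chil3 carried that spread. OGD_PARP14 against OGD_Con gave -3.20 (SE 1.82, 95% interval -7.65 to 1.25, limma adjusted p = 0.571), and OGD_Con against Con gave -0.06 (SE 1.82, 95% interval -4.50 to 4.39). Set within the number, OGD_Con over Con was 118 against 129 FPKM in number 2 and 16.4 against 16.2 FPKM in number 1. OGD_Con and Con thus differed far less than the numbers did. OGD_PARP14 over PARP14 was 17.5 against 16.7 FPKM in number 1 but 0.327 against 137 FPKM in number 2, where it holds the library that stood apart.

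Genes with the pattern most like Chil3 were sought among 6301 tested models with a mean of at least 5 FPKM, by the root mean square difference of centred log2(FPKM + 1) values over the 8 libraries. The closest were Calb2 (0.90), which encodes the calcium-binding protein calretinin, Marco (0.98), a scavenger receptor of macrophages, and Slc13a3 (1.13), a dicarboxylate transporter, where the median model differed by 2.08. Calb2 held 0.166, 55.6, 53.8 and 52.8 FPKM in the libraries numbered 2 of OGD_PARP14, OGD_Con, PARP14 and Con, against 30.1, 28.8, 27.9 and 25.7 in those numbered 1. Marco held 17.4, 1143, 1060 and 1106 FPKM in number 2, against 667, 654, 639 and 609.8 in number 1. Calb2, Marco and Slc13a3 were high in 3 libraries numbered 2, intermediate in the 4 numbered 1 and lowest in OGD_PARP14 replicate 2. Their range was narrower than that of Chil3. They were chosen for likeness to Chil3 in these same libraries, so this order follows from the choice. The 7 monocyte and peripheral macrophage markers did not move together with the number. Cd163, a scavenger receptor, had a mean 2.17 times higher in the 3 libraries numbered 2 than in the 4 numbered 1 with no overlap, Ms4a7, a membrane protein of macrophages, had 0.864 of the mean with no overlap, and Clec4n, a lectin receptor, had 1.26 times the mean with overlap. Ly6c2, Ccr2 and Lyve1 did not exceed 0.0969 FPKM in any library and Plac8 was listed at 0. Summed, the 7 markers held 45.7 to 54.3 FPKM in the libraries numbered 2 and 51.1 to 57.0 FPKM in those numbered 1. Without OGD_PARP14 replicate 2, the sums in number 2 were 48.2 to 54.3 FPKM. Most of each sum was Ms4a7, read from a model joined with Ms4a14 (33.6 to 45.3 FPKM). The part of these markers in the result was not tested. Of the 8 neutrophil markers, S100a9, Ly6g, Mpo, Elane, Retnlg and Ltf were listed at 0 in all 8 libraries. S100a8 held 0.0846 to 1.05 FPKM over the 8 libraries, and Camp was above 0 only in Con replicate 1 (0.203 FPKM). A part of neutrophils in the level of Chil3 was not tested.

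**Figure D3:**
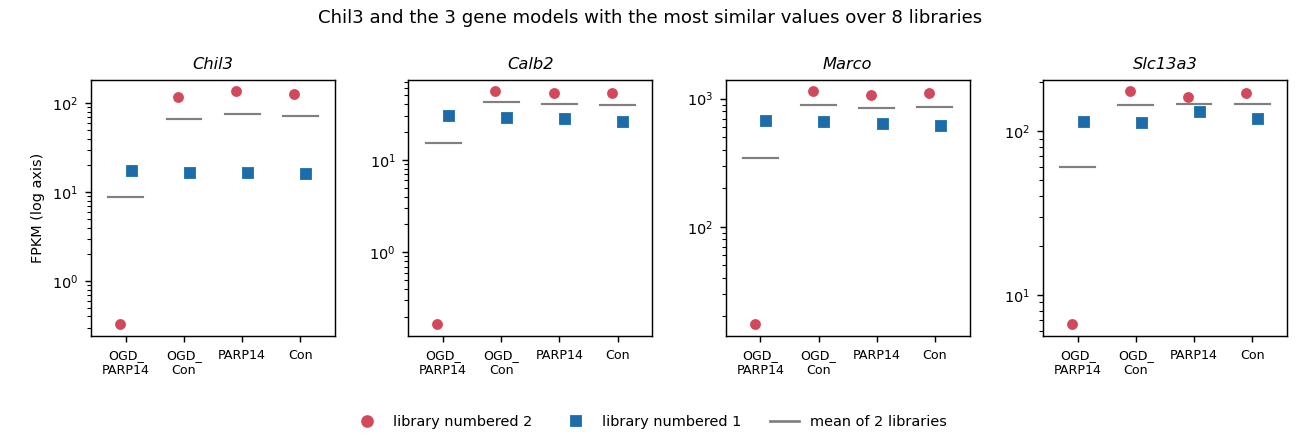
FPKM (log axes) of Chil3 and of Calb2, Marco and Slc13a3, the 3 models with the most similar values, in the 4 groups. Circles are libraries numbered 2, squares those numbered 1 and bars the means of 2. In OGD_Con, PARP14 and Con the circles lie above the squares, and in OGD_PARP14 the circle lies far below.

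Arg1, which encodes the arginase that turns arginine into ornithine (chromosome 10 from 24915221 to 24927484, minus strand), held 0.405 and 0.164 FPKM in OGD_PARP14, 0.546 and 0.746 in OGD_Con, 0.165 and 0.418 in PARP14, and 0.0144 and 0.411 in Con. These are about 0 to 17 fragments, and the groups overlapped except that both OGD_Con libraries were above the other 6. With no filter on low values the OGD effect on Arg1 over both arms was 0.22 (SE 0.15, 95% interval -0.15 to 0.60, limma adjusted p = 0.564). Galns, a lysosomal sulfatase, and Nucks1, a nuclear protein, were among the 3 models most like Arg1 (root mean square difference 0.10 each), where the median was 0.32. They were chosen for likeness in these same libraries. The pseudocount is larger than every value of Arg1, which flattens its pattern on this scale, so nothing is read from the likeness.

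In OGD_PARP14 replicate 2 the members went in different directions. Il13ra1 and Pparg, 2 of 8, lay above each of the other 7 libraries, where 20.7% of models did, and Il4ra, Il2rg, Jak1, Tyk2 and Chil3, 5 of 8, lay below each, where 38.5% did. Relative to the mean of the other 7 it held 1.85 times the Il13ra1, 1.98 times the Pparg, 0.652 of the Il2rg, 0.692 of the Tyk2, 0.886 of the Jak1 and 1.05 times the Stat6.

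Other genes of the pathway were taken from lists of 47, covering ligands, further kinases and STATs, cofactors, targets and inhibitors, of which 33 were tested. The ligands were low, with Il4 at 0.490 and 0.717 FPKM in OGD_PARP14, 0.497 and 0.296 in OGD_Con, 0.369 and 0.432 in PARP14, and 0.191 and 0.410 in Con. Il13 did not exceed 0.0587 FPKM in any library. Of 19 further targets of alternative activation 8 never reached 1 FPKM, and Retnla, which encodes a secreted protein that IL-4 induces, was listed at 0 in all 8 libraries. Mrc1, the mannose receptor, held 15.5 and 29.8 FPKM in OGD_PARP14, 13.5 and 15.4 in OGD_Con, 16.8 and 20.7 in PARP14, and 14.9 and 20.4 in Con. Its OGD effect over both arms was -0.03 (limma adjusted p = 0.947). The targets thus ranged from undetected to well expressed in the same libraries.

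For OGD over both arms, 2 of the 33 rose and 3 fell, against 6.17% of all models called. Irs2, an adaptor that the IL-4 receptor phosphorylates, held 5.72 and 1.93 FPKM in OGD_PARP14, 5.91 and 7.01 in OGD_Con, 0.893 and 0.750 in PARP14, and 0.811 and 0.710 in Con, and it rose by 1.68 (SE 0.26, limma adjusted p = 0.0269). Egr2, a zinc finger factor of IL-4-treated macrophages, held 1.62 and 4.06 FPKM in OGD_PARP14, 1.33 and 2.45 in OGD_Con, 0.318 and 0.437 in PARP14, and 0.205 and 0.551 in Con, and it rose by 1.23 (SE 0.25, limma adjusted p = 0.0469). In both genes all 4 OGD libraries exceeded all 4 without OGD, a pattern that 8.06% of models tested shared.

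Those that fell included a second inhibitor of the pathway. Socs3, an inhibitor of cytokine receptors, held 2.84 and 0.868 FPKM in OGD_PARP14, 2.75 and 2.89 in OGD_Con, 7.58 and 7.18 in PARP14, and 6.89 and 7.01 in Con, with a log2 fold change of -1.35 (SE 0.22, limma adjusted p = 0.0307). Ch25h, which makes 25-hydroxycholesterol, held 6.68 and 2.22 FPKM in OGD_PARP14, 6.99 and 4.08 in OGD_Con, 26.2 and 19.7 in PARP14, and 31.8 and 20.5 in Con (-2.16, SE 0.33, limma adjusted p = 0.0267). In both genes all 4 OGD libraries were below the 4 others, a pattern that 15.8% of models tested shared.

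The calls of these 4 genes were lost when any 1 library of OGD_Con, PARP14 or Con was left out, with limma adjusted p of 0.0909 (Ch25h) to 0.183 (Egr2). With OGD_PARP14 replicate 2 left out they held, at 1.98 for Irs2, 0.99 for Egr2, -1.09 for Socs3 and -1.84 for Ch25h (limma adjusted p = 0.000391 to 0.0130). With no filter on low values none of the 4 was called, at limma adjusted p of 0.0534 (Irs2) to 0.0935 (Egr2). Of the 46 list genes in that fit 1 was called, as lower, where 3.14% of models were called. With the title number as a block Socs3 was lost (limma adjusted p = 0.0507) and the other 3 were kept, and a pseudocount of 0.1 also lost Socs3 (0.0531). Egr2 was lost with a pseudocount of 5, median centring or quantile normalization (limma adjusted p = 0.0532 to 0.0821).

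By list, 1 of 11 tested targets rose and 1 fell, 1 of 11 cofactors rose and 1 of 5 inhibitors fell, and the median log2 fold change of all 33 was 0.00, against -0.05 over all models. With OGD_PARP14 replicate 2 left out, 7 of 33 rose and 6 fell, where 32.8% of models were called.

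Within plasmid labels 0 of 33 passed with all 8 libraries, with 8 of 33 and 1617 of 11146 models at an unadjusted p under 0.05 for OGD_PARP14 against PARP14, and 6 of 33 and 2144 of 11146 for OGD_Con against Con. In the fit without OGD_PARP14 replicate 2, 3 of 33 rose and 2 fell for OGD_PARP14 against PARP14, where 10.7% of all models were called, and 6 rose and 3 fell for OGD_Con against Con, where 23.1% were. Irs2 (1.89 and 2.08), the histone demethylase Kdm6b (1.28 and 1.36) and Trim24 (0.57 and 0.56), a coregulator listed with the inhibitors, rose in both, and Socs3 (-1.12 and -1.06) fell in both, each pair given as OGD_PARP14 against PARP14 and then OGD_Con against Con. Ch25h fell by 2.06, and Egr2 and Ppargc1b, a coactivator of oxidative metabolism, rose by 1.05 and 0.66, in OGD_Con against Con. Kdm6b was at 4.35 and 0.394 FPKM in OGD_PARP14, 4.36 and 5.13 in OGD_Con, 1.07 and 1.35 in PARP14, and 1.23 and 1.24 in Con, so OGD_PARP14 replicate 2 was the lowest library and the other 3 OGD libraries the highest.

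**Figure D4:**
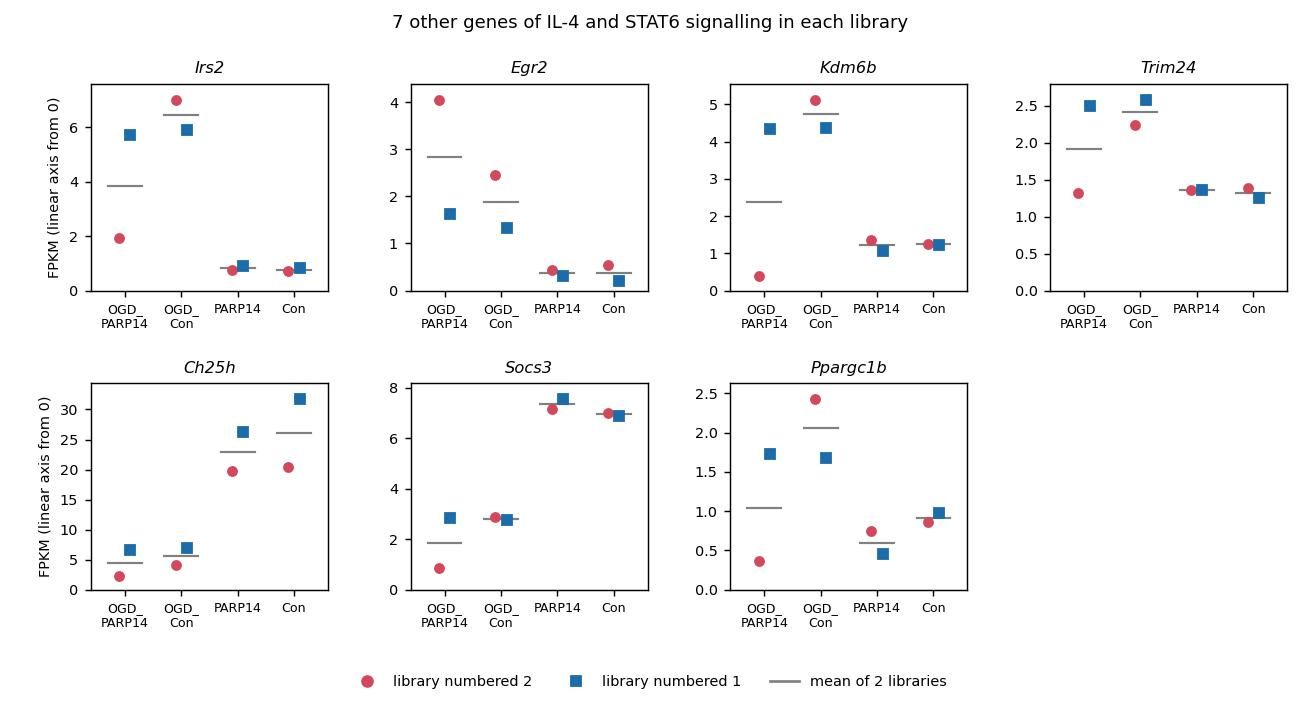
FPKM (linear axes from 0) of 7 other pathway genes in the 4 groups, with libraries numbered 2 as circles, those numbered 1 as squares and means of 2 as bars. Ch25h and Socs3 are lower in the 4 OGD libraries, Irs2 and Egr2 are higher in them, and Kdm6b, Trim24 and Ppargc1b are higher in 3 of the 4.

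Between plasmid labels none of the 33 was called, with 0 at an unadjusted p under 0.05 for OGD_PARP14 against OGD_Con (0% of models called, 387 of 11146 at an unadjusted p under 0.05) and 1 for PARP14 against Con (0.00897% called, 110 of 11146). The fit without OGD_PARP14 replicate 2 called none of the 33 either, where 0.0987% and 0.0538% of models were called, with 0 and 3 of the 33 at an unadjusted p under 0.05. The smallest p in the OGD comparison belonged to Bcl6, a repressor that competes with STAT6 for sites (0.45, SE 0.20, limma adjusted p = 0.571), and to Jak2 (-0.46, SE 0.22, limma adjusted p = 0.571). Without OGD the smallest belonged to Parp14 itself (-2.15, SE 0.60, limma adjusted p = 1) and Stat5a (0.21, SE 0.15, limma adjusted p = 1). For the difference between both OGD effects 0 of 33 passed, where 0.00897% of models did, and 1 of 33 and 211 of 11146 models had an unadjusted p under 0.05. Lowest in p were Parp14 (3.19, SE 0.84, limma adjusted p = 0.824) and Jak2 (-0.53, SE 0.31, limma adjusted p = 0.824).

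For number 2 against number 1, 0 of 33 passed, where 0% of models did, and 5 of 33 and 440 of 11146 models had an unadjusted p under 0.05. The smallest belonged to Cebpb, a bZIP factor that acts at the Arg1 enhancer (-0.74, SE 0.09, limma adjusted p = 0.806), and Ch25h (-0.73, SE 0.16, limma adjusted p = 0.806). Cebpb was lower in number 2 in 4 of 4 groups, at 8.93, 14.6, 8.12 and 8.40 FPKM in number 2 of OGD_PARP14, OGD_Con, PARP14 and Con, against 15.6, 24.3, 16.4 and 13.1 in number 1. Cd36, a fatty acid receptor, was the 1 of 33 whose 3 libraries numbered 2 all lay above those numbered 1, where 3.22% of models did, at 291 to 334 FPKM against 239 to 273, and it reached 691 FPKM in OGD_PARP14 replicate 2. Its direction in that library was thus opposite to that of Chil3.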

How the data were processed

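Per the labels' protocols, RNA was extracted with TRIzol, poly(A) RNA was selected and stranded dUTP libraries with molecular identifiers were read in pairs on a NovaSeq instrument. HISAT, StringTie and edgeR and the build mm9 are named, per the submitters' processing notes. FPKM per gene model and library were deposited by the authors, and per the file headers also coordinates, of which 96.2% of Ensembl models match GENCODE M21 (GRCm38), so they are given as deposited. StringTie can shift fragments between overlapping models.

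From the FPKM, log2(FPKM + 1) was fitted by limma (4 group means, 4 residual degrees of freedom, trend and robust off) for 11146 named models with at least 1 FPKM in 2 of 8 libraries. An adjusted p (Benjamini-Hochberg) under 0.05 was a call. The model was tested on simulated data. Depth is an estimate, since no counts were used, and covers counting error only. Alternatives were other pseudocounts, filters and normalizations, an intensity trend, only the libraries compared, a block by title number, and each library left out. The comparison over both arms and combined settings were added after seeing the data. The members and lists were chosen with earlier results of these data known. Named were all members, and per comparison up to 8 list genes with the smallest p among those called, with all libraries or else without OGD_PARP14 replicate 2, or 2 where none was called. Some genes that this rule names are not reported here. Promoters came from RefSeq. Used were R 4.3.3, limma 3.58.1, the data.table package (version 1.17.8), Python 3.11.15, pandas 2.3.3, numpy 2.4.6, matplotlib 3.10.9 and Biopython 1.88.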

Additional observations from a re-analysis of the deposited data

How the results depend on the processing

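No member reversed a called direction under any setting run. Called models numbered 30 for OGD_Con against Con, 24 for OGD_PARP14 against PARP14, 688 over both arms, 0 for OGD_PARP14 against OGD_Con, 1 for PARP14 against Con and 1 for the difference between both OGD effects. For OGD_Con against Con they became 10 with a pseudocount of 0.1, 74 with no filter, 49 with an intensity trend and 1790 (with 1 member) with only the libraries compared. Only the libraries compared gave 0 for OGD_PARP14 against PARP14 and 5 for PARP14 against Con. Quantile normalization and median centring each gave 1 for OGD_PARP14 against OGD_Con. For PARP14 against Con, a pseudocount of 5 and no filter each gave 2. For the difference between both OGD effects, a pseudocount of 0.1, no filter and an intensity trend each gave 0. No filter gave 2 members called over both arms, Pparg and Socs1.

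With the title number as a replicate block, called models became 0 for OGD_Con against Con, 1 for OGD_PARP14 against PARP14, 314 over both arms with 0 members, and 0 for the difference between both OGD effects. The labels do not say what the number marks. Differences of number 2 minus 1 correlated at 0.0136 to 0.124 between groups, over 0.1 in 2 of 6 pairs of groups. Pairs with OGD_PARP14 gave 0.0136 to 0.0835, and pairs among OGD_Con, PARP14 and Con gave 0.0925 to 0.124. The main fit held no block for the number because the labels do not explain it. What the number marks was not tested, and these values do not settle whether the samples pair. Settings added after seeing the data left out OGD_PARP14 replicate 2 as well. With no filter they gave 2191, 1016, 3614 (2 members), 3, 4 and 6 called models for the 6 comparisons in the order of the counts above. With the block they gave 2618 (1 member), 1040 (1 member), 3737, 1, 4 and 7.

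Leaving out each library in turn gave 0 to 2574 called models and 0 to 1 members for OGD_Con against Con, 0 to 3497 and 0 to 5 for OGD_PARP14 against PARP14, 0 to 3918 and 0 to 4 over both arms, 0 to 4661 and 0 to 5 for OGD_PARP14 against OGD_Con, 0 to 6 and 0 to 0 for PARP14 against Con, 0 to 3295 and 0 to 2 for the difference between both OGD effects, and 0 to 1 and 0 to 0 for number 2 against 1, with Chil3 not counted there. The counts of 5 members arose with OGD_PARP14 replicate 1 left out, when replicate 2, the library unlike the rest, was its whole group. The cause of the other changes was not tested. Arg1, Socs1 and Il4 rest on few fragments, and their differences are limited by depth. The Chil3 value of OGD_PARP14 replicate 2 is itself imprecise, at about 7 fragments. The other libraries held about 343 to 3594, and the estimated depth of that library (13.5 M fragments) lay within the range of all libraries (13.4 to 17.0 M).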
